A study of Mus musculus with 20 samples.

Results

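The mitochondrial genome of the mouse carries 37 genes in the annotation used for counting, and all of them are described here in the adult hippocampus. They were taken by position, as every gene placed on chrM, out of 48709 genes counted. Of these, 13 encode mRNAs, 2 encode rRNAs and 22 encode tRNAs.

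Hippocampi came from 20 adult C57BL/6 mice (C57BL/6J in the methods) whose dams inhaled either nano-sized particulate matter (nPM) or filtered air (control) while pregnant, with 5 animals of each sex per exposure. Exposure ran for 5 hours per day on 3 days per week from gestational day 2 until birth, and the concentration of 300 carries the unit mg/m3 in the sample labels and μg/m3 in the methods. The females were 17.71 to 18.29 weeks old and the males 18.57 to 19.14 weeks old, so that sex and age cannot be told apart. The methods add that males received EdU, a thymidine analogue that marks dividing cells. If females received none, EdU and sex cannot be told apart either. The methods also state that brains were perfused with saline, and that the hippocampus of the right hemisphere was taken. Offspring came from 5 litters per exposure group, but litter is not among the sample labels, so p-values measure only the spread between these samples. Total RNA was depleted of rRNA with the RiboZero Gold kit, which is designed to remove both cytoplasmic and mitochondrial rRNA, and sequenced. Values for the rRNA genes therefore describe what was left after depletion. Total counts ran from 19092067 in nPM female 4 to 38663408 in control male 4. Levels are given as counts, as counts-per-million values (CPM), or, where genes are compared with each other, as CPM per kilobase of gene (RPKM).

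Mammalian mitochondrial DNA is a small circle that is read in full from both strands into long precursors. In these precursors most mRNAs and rRNAs are separated by tRNAs, and cutting at the tRNA ends frees them. The mRNAs encode core subunits of respiratory complexes I, III and IV and of ATP synthase, which work together with subunits encoded in the nucleus and supply much of the ATP that neurons use. In this annotation 28 genes, among them 12 of the 13 mRNAs and both rRNAs, lie on the plus strand (heavy-strand genes below) and 9 lie on the minus strand (light-strand genes), namely mt-Nd6 and 8 tRNA genes. Whether reads were assigned by strand is not given in the sources used here, so reads of a light-strand gene and reads copied from the opposite strand at the same place cannot be told apart.

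The dissection was checked against marker genes. All 10 hippocampal neuron markers passed the filter on low counts, and their summed level ran from 597 to 816 CPM over the 20 libraries, with Neurod6 the most abundant. Markers of the choroid plexus, a neighbouring tissue, summed to between 33.1 and 8539 CPM, mostly from Ttr, and markers of blood summed to between 1.27 and 56.9 CPM. Striatum markers summed to 280 CPM in nPM female 1, against 35.2 to 102 CPM in the other libraries, with Ppp1r1b the most abundant. Of the choroid plexus and blood markers, 0 had a mean below 1 count.

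A pair of libraries stood apart from the other 18 in the mitochondrial tRNAs, and results that rest on them are given with and without them. mt-Ts1, the gene of a serine tRNA, had 1802 counts in control male 1 and 1580 in nPM female 4, against 0 to 53 in every other library. The same libraries were the highest for 4 more light-strand tRNA genes. mt-Tc had 146 and 331 counts against 1 to 24, mt-Ty 127 and 242 against 4 to 38, mt-Tn 50 and 93 against 0 to 4, and mt-Te 120 and 152 against 9 to 48. mt-Tt, a heavy-strand tRNA gene, was instead lowest there, with 12 and 16 counts against 34 to 149. The same libraries were also the lowest in mt-Tm (2.68 and 2.46 CPM against 3.00 to 4.84 CPM) and the highest in mt-Tw (19.4 and 17.5 CPM against 10.4 to 16.6 CPM), both heavy-strand tRNA genes. They were the highest in mt-Tl2 (0.428 and 0.471 CPM against at most 0.353 CPM) and in the mRNA mt-Co1 as well (14406 and 13282 CPM against 8340 to 13096 CPM). Summed over the 8 light-strand tRNA genes, control male 1 had 102 CPM and nPM female 4 had 162 CPM, against 16.4 to 32.9 CPM elsewhere, whereas the 14 heavy-strand tRNA genes summed to 34.8 and 33.3 CPM, inside the range of 23.6 to 39.3 CPM of the others. Light-strand genes thus held 74.5% and 82.9% of all mitochondrial tRNA counts in these libraries and 36.7% to 50.8% in the rest. Of the light-strand sums, mt-Ts1 alone made up 64.3 and 82.8 CPM. Not all light-strand tRNA genes were high. In both libraries mt-Tp, at 12.4 and 15.1 CPM, lay inside the range of the others. For mt-Tq and mt-Ta, control male 1 lay inside that range (7.49 and 1.78 CPM) and nPM female 4 above it (11.99 and 8.90 CPM).

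**Figure D1:**
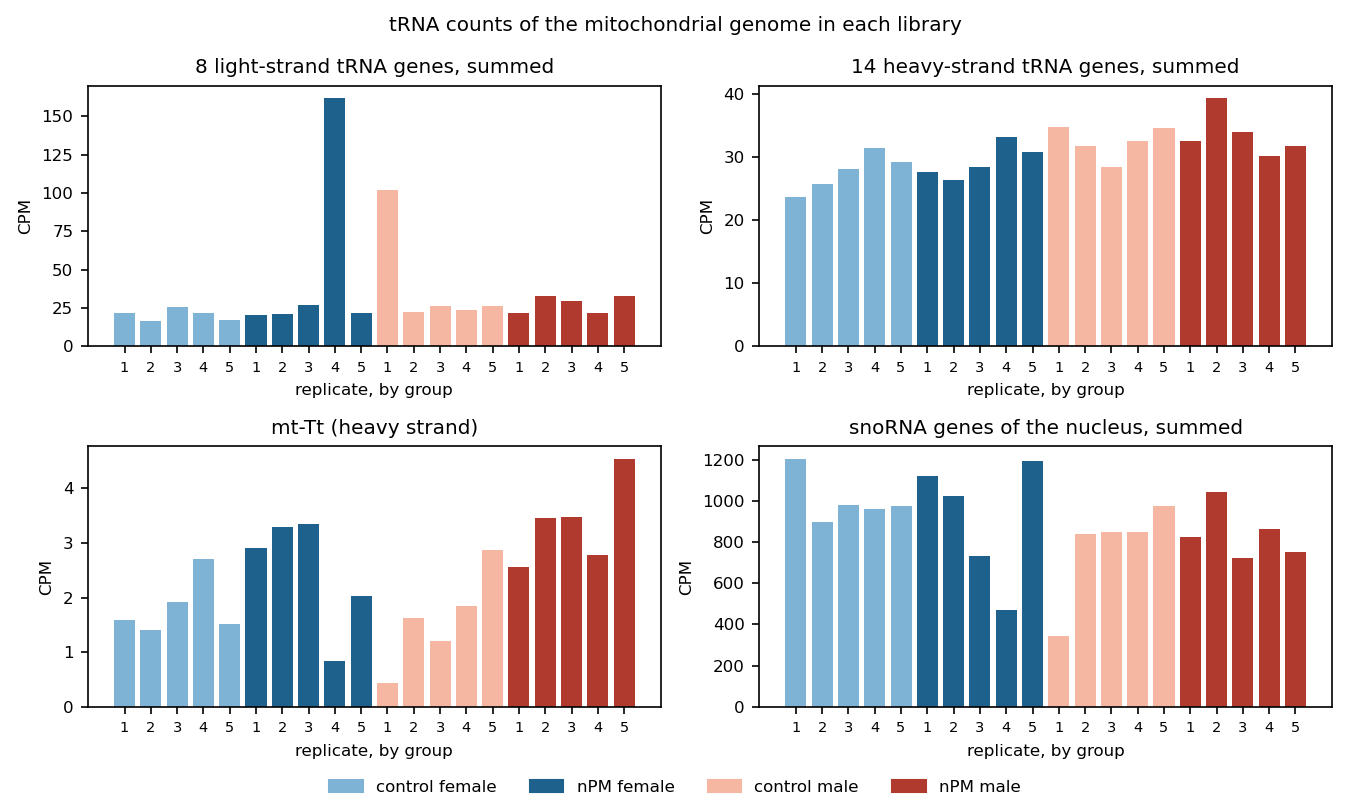
Summed CPM of the 8 light-strand and the 14 heavy-strand mitochondrial tRNA genes, CPM of mt-Tt, and summed CPM of nuclear snoRNA genes, with 1 bar for each library and colours for the 4 groups (replicates 1 to 5). Control male 1 and nPM female 4 are the highest in light-strand tRNA and the lowest in mt-Tt and snoRNA.

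Of the nuclear small RNA classes, snoRNA and scaRNA were low in both libraries. snoRNA genes summed to 344 CPM in control male 1 and 473 CPM in nPM female 4, against 722 to 1207 CPM in the other libraries, and scaRNA genes to 437 and 429 CPM against 679 to 964 CPM. snRNA genes were low only in control male 1 (1138 CPM, and 2090.2 CPM in nPM female 4, others 1968 to 4253 CPM), and misc_RNA genes only in nPM female 4 (657 CPM, and 3757 CPM in control male 1, others 3038 to 14782 CPM). mt-Nd6, the only light-strand mRNA, was at 150 CPM in control male 1 and 240 CPM in nPM female 4, against 89.9 to 131 CPM. Antisense genes of the nucleus were outside the range of the other libraries in nPM female 4 (3087 CPM) but not in control male 1 (1631 CPM, others 1284 to 2000 CPM). The part of library preparation in these differences was not tested.

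The tRNA genes whose counts set these libraries apart are printed in the sense direction from transcripts of GENCODE release M21 on GRCm38 (mm10), with the anticodon in capitals. All 5 high tRNAs lie on the minus strand, mt-Tn at chrM:5089-5159, mt-Tc at chrM:5192-5257, mt-Ty at chrM:5260-5326, mt-Ts1 at chrM:6870-6938 and mt-Te at chrM:14071-14139. mt-Tt, which was low, lies on the plus strand at chrM:15289-15355. mt-Tn, mt-Tc and mt-Ty are neighbours in the tRNA cluster beside the origin of light-strand replication.
mt-Tn: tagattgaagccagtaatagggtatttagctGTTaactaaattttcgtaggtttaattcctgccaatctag
mt-Tc: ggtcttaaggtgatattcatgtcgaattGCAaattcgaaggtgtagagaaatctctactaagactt
mt-Ty: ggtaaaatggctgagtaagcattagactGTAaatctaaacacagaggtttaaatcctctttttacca
mt-Ts1: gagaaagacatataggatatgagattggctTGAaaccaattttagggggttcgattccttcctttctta
mt-Te: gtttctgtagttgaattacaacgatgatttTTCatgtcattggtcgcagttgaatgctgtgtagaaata
mt-Tt: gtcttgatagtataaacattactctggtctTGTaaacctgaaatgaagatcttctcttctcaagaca

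The rRNA genes were the most abundant mitochondrial transcripts despite the depletion. mt-Rnr2, the large ribosomal subunit RNA (chrM:1094-2675), had a mean of 60605 RPKM (range 50866 to 72678), and mt-Rnr1, the small subunit RNA (chrM:70-1024), a mean of 15852 RPKM (range 11620 to 20585). Both rRNAs together held 82.2% to 87.2% of the counts on chrM, the mRNAs 12.8% to 17.7% and the tRNAs 0.0314% to 0.124%. The count ratio of mt-Rnr2 to mt-Rnr1 was not constant, and ran from 4.69 to 8.94 over the libraries.

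Among the mRNAs, mt-Co1, the catalytic subunit of complex IV, led with a mean of 7108 RPKM (range 5398 to 9324) and held 45.1% to 61.5% of all mRNA counts. mt-Cytb, the complex III subunit, followed with 2609 RPKM (2239 to 3041), and mt-Nd1, a complex I subunit, with 2235 RPKM (1823 to 2585). The ranges of mt-Cytb and mt-Nd1 overlapped. The complex I subunits mt-Nd4, mt-Nd2 and mt-Nd5 had 801 (648 to 1235), 781 (647 to 965) and 542 RPKM (366 to 1002), also with overlapping ranges. mt-Nd6, another complex I subunit, had 230 RPKM (173 to 463).

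The other 6 mRNAs lie side by side and were much more variable. mt-Co3 and mt-Co2, complex IV subunits, had means of 619 and 576 RPKM, mt-Atp6 and mt-Atp8, ATP synthase subunits, 295 and 211 RPKM, and mt-Nd3 and mt-Nd4l, complex I subunits, 160 and 20.5 RPKM. From the lowest to the highest library mt-Co2 differed 28.3-fold, mt-Atp8 101-fold, mt-Atp6 54.8-fold, mt-Co3 22.9-fold, mt-Nd3 27.6-fold and mt-Nd4l 35.4-fold. Over the same libraries mt-Cytb differed 1.36-fold, mt-Nd1 1.42-fold, mt-Nd2 1.49-fold, mt-Co1 1.73-fold, mt-Nd4 1.91-fold, mt-Nd6 2.67-fold and mt-Nd5 2.74-fold.

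**Figure D2:**
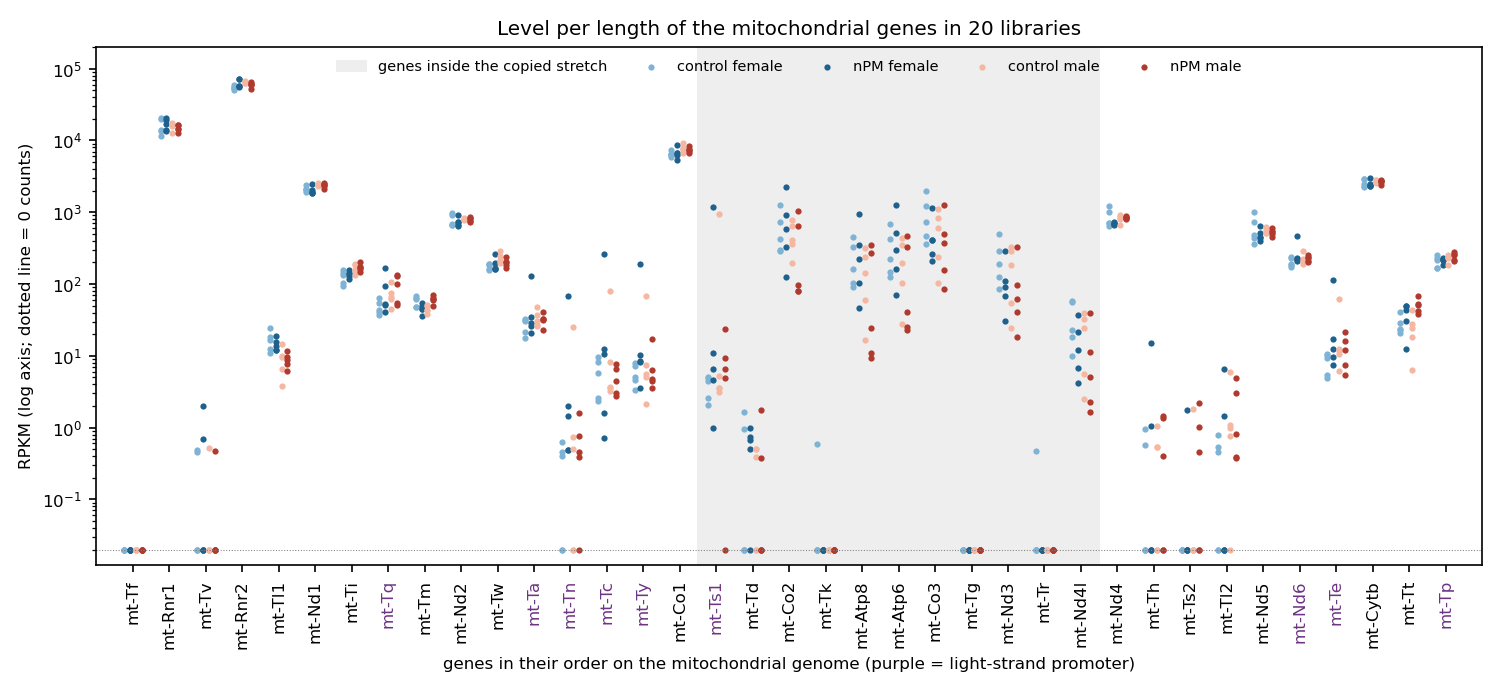
RPKM (log axis) of the 37 mitochondrial genes in their order on the mitochondrial genome, with 1 point for each of the 20 libraries, coloured by group. The dotted line marks a count of 0, purple names are light-strand genes, and the shaded genes lie inside the stretch bounded by near-identical copies on chromosome 1. Among the mRNAs those in the shaded stretch spread widest, and among all genes mt-Ts1, mt-Tn and mt-Tc do.

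The spread of these 6 mRNAs was within groups. The SD of log2 CPM within groups was 1.34 for mt-Co2, 1.81 for mt-Atp8, 1.62 for mt-Atp6, 1.24 for mt-Co3, 1.36 for mt-Nd3 and 1.51 for mt-Nd4l, and between 0.12 for mt-Nd1 and 0.34 for mt-Nd5 for the other mRNAs. Among 4976 nuclear genes with a mean of at least 40 CPM the median SD was 0.14, and 16 of them (0.322%) had an SD of at least 1. Over all 19770 nuclear genes past the filter the median SD was 0.26. mt-Nd4l, with a mean of 6.09 CPM, lies below the limit of 40 CPM. Control females 1 to 5 had 290, 850, 503, 204 and 195 CPM of mt-Co2, and females exposed to nPM had 84.9, 1530.5, 227, 630.3 and 405 CPM. Control males 1 to 5 had 278, 249, 135, 528 and 436 CPM, and males exposed to nPM had 445, 54.2, 66.0, 54.5 and 715 CPM. High and low libraries occurred in each group, and the groups overlapped. The 6 mRNAs varied together for the most part. After subtracting group means, the Pearson correlation of log2 CPM was positive for all 15 pairs of them (0.616 to 0.995, median 0.795), a measure chosen after seeing the data. It was also positive for 19 of the 21 pairs of the other 7 mRNAs (-0.363 to 0.895, median 0.643). Their ratios were not constant. The count ratio of mt-Co2 to mt-Co3 lay within 2-fold of its median of 0.643 in 14 libraries (0.448 to 0.805), over which mt-Co2 ran from 54.2 to 850 CPM, and it was 0.142 in nPM male 4, 1.51 in control male 1, 1.53 in nPM male 1, 1.68 in control male 3, 1.98 in nPM female 4 and 7.57 in nPM female 2. The ratio of mt-Co2 to mt-Atp6 lay within 2-fold of its median of 1.98 in 18 libraries, and that of mt-Nd1 to mt-Cytb stayed between 0.614 and 0.803 in all 20.

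**Figure D3:**
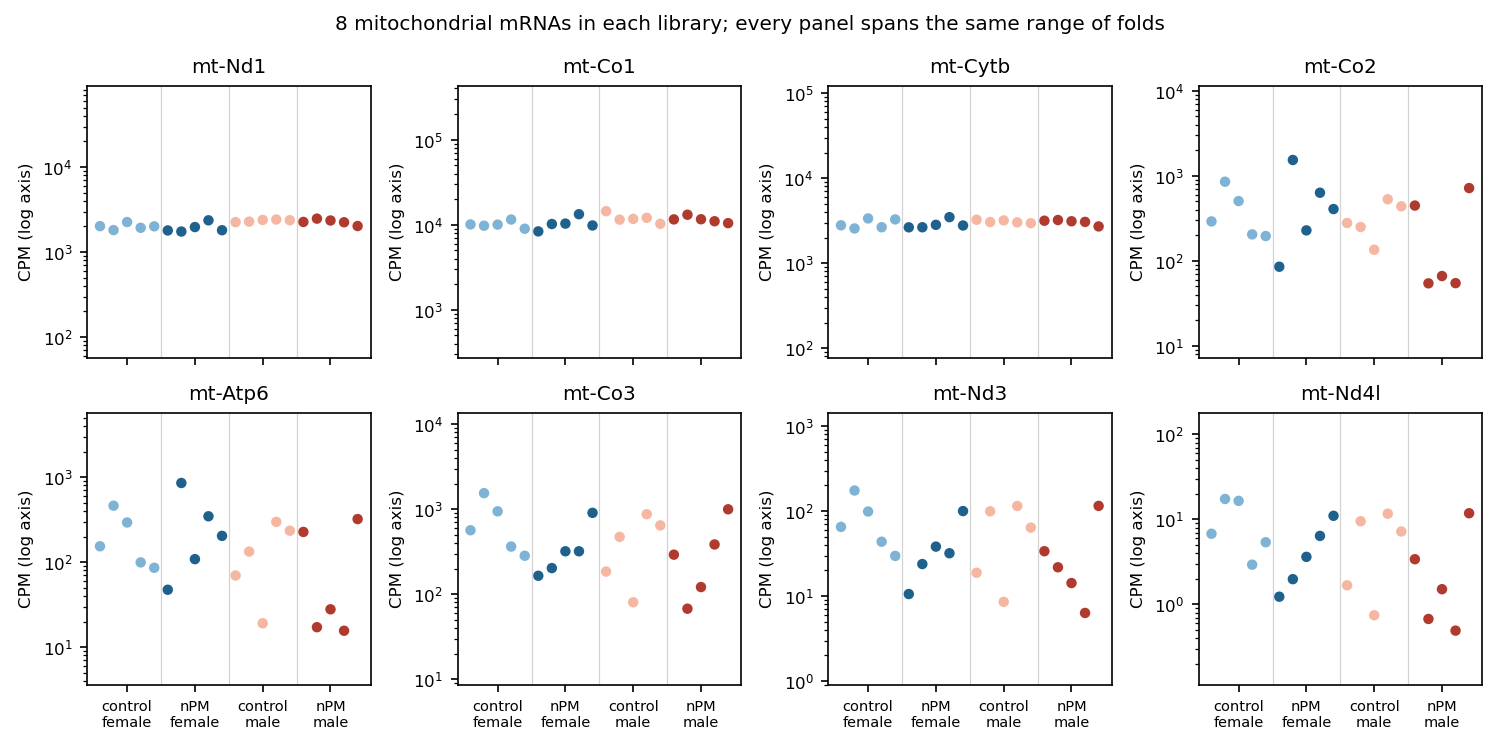
CPM (log axis) of 8 mitochondrial mRNAs in each of the 20 libraries, 5 points per group, with every panel spanning the same range of folds. mt-Nd1, mt-Co1 and mt-Cytb lie close to level lines, whereas mt-Co2, mt-Atp6, mt-Co3, mt-Nd3 and mt-Nd4l scatter within all 4 groups.

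Of these mRNAs, 5 have a near-identical copy in the nuclear genome, and all 6 are reported as uncertain. Of the annotated nuclear transcripts searched with blastn, 7 unprocessed pseudogenes at chr1:24611535-24616197 (minus strand) matched parts of chrM:6390-11042 at 99% identity or more, a stretch of 4653 bases (the copied stretch below) that holds 11 genes whole (6 mRNA and 5 tRNA genes) and parts of mt-Co1 and mt-Nd4. The copy of mt-Co2, Gm28661, matched over 681 of 684 bases with 100% identity, that of mt-Atp6, Gm10925, over 678 of 681, that of mt-Co3, Gm28437, over 783 of 784, that of mt-Nd4l, Gm10222, over 294 of 297, and that of mt-Nd3, Gm28438, over 345 of 348 bases with 99.71% identity. Gm29216 matched the last 483 bases of mt-Co1 and Gm28439 the 876 bases at the start of mt-Nd4. The copies stand in the order of the mitochondrial genes, and the gaps between neighbouring copies (140, 233, 2 and 69 bases for the leading pairs) were equal on chrM and chromosome 1 except for mt-Nd3 to mt-Nd4l, with 73 and 74 bases.

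Within the aligned pseudogenes only 2 bases differed, T3C in mt-Nd3 and A1066T in mt-Co1, where the chrM base comes first, the copy's base last, and positions count from 1 at the gene's 5′ end. Both windows are shown 5′ to 3′ (GRCm38, the chrM genes on the plus strand and the copies on the minus strand) with the differing base in capitals, because outside these bases a read inside the aligned genes fits both places equally well. They lie at chrM:9459-9490 and chr1:24613088-24613119, and at chrM:6390-6422 and chr1:24616156-24616188.
mt-Nd3: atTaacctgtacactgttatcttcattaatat
Gm28438: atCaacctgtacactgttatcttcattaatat
mt-Co1: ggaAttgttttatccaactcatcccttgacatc
Gm29216: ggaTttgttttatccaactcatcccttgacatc

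The nuclear copies collected counts of their own. Gm28661 had 283 to 3335 counts per library against 1689 to 32477 for mt-Co2, and the ratio of copy to gene ran from 0.00871 to 1.67. It ran from 0.0135 to 4.59 for mt-Atp6, from 0.0437 to 1.90 for mt-Co3, from 0.187 to 7.84 for mt-Nd3 and from 0.0892 to 5.05 for mt-Nd4l. For mt-Co1 and mt-Nd4, which are only partly copied, it stayed between 0.00168 and 0.00949. Whether the copied parts affect the levels given for mt-Co1 and mt-Nd4 was not tested. Adding the counts of each copy to its gene left a within-group SD of log2 CPM of 1.16 for mt-Co2, 1.25 for mt-Atp6, 1.04 for mt-Co3, 0.71 for mt-Nd3 and 1.12 for mt-Nd4l. The sums thus remained more variable than the mRNAs not wholly inside the stretch. How reads with several alignments were counted is not given in the sources used here, and its part in the spread was not tested.

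mt-Atp8 (chrM:7766-7969, plus strand), the most variable of the mRNAs, lies between mt-Co2 and mt-Atp6. None of the annotated nuclear transcripts matched it at 99% identity over 100 bases or more (the longest match was 81.44% over 167 bases), and the sequence between the copies on chromosome 1 was not examined. It shares its last 43 bases with the start of mt-Atp6, and these bases also match Gm10925 at 100%. The overlap, in capitals, is printed because reads inside it belong to both genes.
mt-Atp8: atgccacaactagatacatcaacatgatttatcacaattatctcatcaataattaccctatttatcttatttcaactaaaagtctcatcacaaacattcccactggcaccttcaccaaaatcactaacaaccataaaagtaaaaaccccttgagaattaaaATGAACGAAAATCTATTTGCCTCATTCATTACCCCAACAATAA

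The tRNA genes, which are 59 to 75 bases long, gave few counts. Of the 22, 12 passed the filter on low counts. By mean CPM the highest were mt-Tp (proline), mt-Tw (tryptophan, 13.3 CPM), mt-Ti (isoleucine, 10.3 CPM), mt-Ts1 (7.70 CPM, which rests on the pair of libraries above) and mt-Tq (glutamine, 5.20 CPM). Per length, mt-Tp had 224 RPKM (164 to 281), mt-Tw 199 RPKM (155 to 289) and mt-Ti 150 RPKM (95.2 to 204), close to the mRNAs mt-Nd6 and mt-Nd3 on the same scale, and the ranges of mt-Tp and mt-Tw overlapped. mt-Tf and mt-Tg had 0 counts in all 20 libraries, for which the limit of 3 counts is 0.0776 to 0.157 CPM (counting error only). mt-Tk and mt-Tr had 1 count in a single library each. mt-Tg, mt-Tk and mt-Tr lie inside the copied stretch, as do mt-Ts1 and mt-Td, whereas mt-Tf lies outside it. The part of read assignment in the counts of these tRNA genes was not tested, so low counts there are uncertain. Whether the counts came from mature tRNAs or from longer precursors cannot be told apart in these data.

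The question of the study was whether gestational nPM left changes in the adult hippocampus, and a gene was called at an unadjusted limma p under 0.005, the level of the methods, beside an adjusted p under 0.05 (limma with Benjamini-Hochberg adjustment over the 19797 genes that passed the filter). Of the mitochondrial genes 27 entered the fits (13 mRNAs, 2 rRNAs and 12 tRNAs). With sexes combined and sex as a covariate, limma called 0 of 27 (background 0.141% of all genes tested), 1 had p under 0.05 (background 2.10%) and 0 had an adjusted p under 0.05 (background 0%). edgeR called 0 and had 2 under 0.05, and DESeq2 called 1 and had 2 under 0.05 (they called 26 and 43 of all 19797 genes). Here as below, no share of all genes under 0.05 is given for edgeR and DESeq2. Their counts of mitochondrial genes under 0.05 therefore have no background to be read against. The median log2 fold change was -0.17 for the 13 mRNAs and -0.01 for all genes tested. It was -0.05 for the 7 mRNAs not wholly inside the copied stretch, a set chosen after seeing the data. Of these, mt-Co1 and mt-Nd4 lie partly inside it. Here as below, fewer mitochondria-rich cells and less RNA per cell cannot be told apart in bulk tissue.

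In males, limma called 0 of 27 mitochondrial genes after nPM (background 0.207%), 3 had p under 0.05 (background 4.28%), and 0 had an adjusted p under 0.05 (background 0%). edgeR called 0 with 3 under 0.05, and DESeq2 called 1 with 3 under 0.05 (41 and 113 of all genes called). The 3 genes were mt-Tt, mt-Tm and mt-Rnr2, named after their values were seen. In females, limma called 0 of 27 (background 0.0909%), with 0 under 0.05 (background 1.99%) and 0 at an adjusted p under 0.05 (background 0%). edgeR called 0 with 5 under 0.05, and DESeq2 called 0 with 3 under 0.05 (24 and 55 of all genes called).

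mt-Tt, the threonine tRNA, had the lowest p of the 27 mitochondrial genes in the combined fit. In control males 1 to 5 it had 0.428, 1.63, 1.21, 1.84 and 2.87 CPM, and in nPM males 2.57, 3.46, 3.47, 2.78 and 4.54 CPM. Of the nPM males, 3 were above every control male, and control male 5 lay above the other 2. In control females it had 1.58, 1.41, 1.92, 2.71 and 1.52 CPM, and in nPM females 2.91, 3.30, 3.34, 0.838 and 2.02 CPM. Here nPM females 1, 2 and 3 were above all controls and nPM female 4 below them, so the groups overlapped in each sex. With sexes combined the log2 fold change was 0.80 (SE 0.28, n = 10 per exposure, limma p = 0.00896, adjusted p = 1). It was 1.17 for males (SE 0.36; p = 0.0238 by exact permutation, p = 0.00778 and adjusted p = 0.963 by limma) and 0.38 for females (SE 0.33; p = 0.437 by exact permutation, p = 0.276 and adjusted p = 1 by limma). Control male 1 and nPM female 4, which stood apart, were the lowest of their groups and of all libraries. Without both libraries, an alternative chosen after seeing the data, the combined value was 0.72, which passed the call threshold (as it did without control female 4, control male 5 or nPM female 4 alone), and the values in males and females were 0.80 and 0.63, which did not. In males it passed without control male 5 (1.46). The difference between the sexes in the effect on mt-Tt was 0.81 (SE 0.53, limma adjusted p = 0.987), and 0.18 without both libraries (SE 0.36, limma adjusted p = 0.931).

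mt-Rnr2 was tested on the same scale. In control males 1 to 5 it had 107205, 103277, 99457, 102755 and 100842 CPM, and in nPM males 101852, 93980, 97424, 96622 and 81543 CPM. Of the nPM males, 4 were below every control male and nPM male 1 lay among them. In control females it had 85764, 83608, 88351, 80471 and 94716 CPM, and in nPM females 91796, 112487, 91372, 114977 and 89049 CPM. Here nPM females 2 and 4 were above every other female, and the rest overlapped with the controls. The log2 fold change after nPM was -0.16 for males (SE 0.07; p = 0.0238 by exact permutation, p = 0.0349 and adjusted p = 0.963 by limma) and 0.23 for females (SE 0.11; p = 0.0476 by exact permutation, p = 0.0542 and adjusted p = 1 by limma). Without control male 1, control male 5 or nPM male 5 the value in males was -0.14, -0.17 or -0.12, and its limma p was no longer under 0.05. Without both libraries that stood apart the value in females was 0.16. In that run mt-Rnr1 had a limma p under 0.05 in males, at -0.20 against -0.12 with all libraries.

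The test of whether the nPM effect differed between the sexes called 1 of 27 mitochondrial genes (background 0.217%), with 2 under 0.05 (background 3.79%) and 0 at an adjusted p under 0.05 in limma (background 0%). edgeR called 3 with 6 under 0.05, and DESeq2 called 3 with 3 under 0.05 (66 and 89 of all 19797 genes called). Beside mt-Tm, edgeR called mt-Tc and mt-Ts1 and DESeq2 called mt-Te and mt-Rnr2, and of these the tRNAs mt-Tc, mt-Ts1 and mt-Te had their highest counts in control male 1 and nPM female 4. The called gene was mt-Tm, the methionine tRNA that serves both the start and the inner methionines of mitochondrial proteins (chrM:3845-3913, plus strand, GRCm38), printed with its anticodon in capitals.
mt-Tm: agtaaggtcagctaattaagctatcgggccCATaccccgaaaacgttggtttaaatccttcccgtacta

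mt-Tm had 3.27, 3.28, 4.45, 4.28 and 4.66 CPM in control females 1 to 5 and 3.45, 3.11, 3.13, 2.46 and 3.73 CPM in nPM females. In control males it had 2.68, 3.00, 3.44, 3.03 and 3.49 CPM, and in nPM males 4.41, 4.84, 4.27, 4.15 and 3.45 CPM. Of the nPM males 4 were above every control male, whereas of the nPM females 3 were below every control female, and in each sex the groups overlapped. The interaction, males minus females, was 0.68 on the log2 scale (SE 0.20; p = 0.00248 and adjusted p = 0.987 by limma), from 0.39 for males (SE 0.13; p = 0.0159 by exact permutation, p = 0.0125 by limma) and -0.27 for females (SE 0.16; p = 0.0794 by exact permutation, p = 0.116 by limma). These values rest on 47 to 165 counts per library. Control male 1 and nPM female 4, the libraries that stood apart, had the lowest mt-Tm of all. Without both the interaction was 0.58 and was not called. With each of the 20 libraries left out in turn, limma called mt-Tm in 13 runs, with values from 0.62 to 0.75. The call was lost without control female 3, 4 or 5 (0.63 each), control male 1, 2 or 4 (0.63, 0.65 and 0.65) or nPM male 2 (0.62), and kept without nPM female 4 (0.62). In males alone mt-Tm was called without nPM male 5 (0.45). mt-Rnr2 had an interaction of -0.38 (SE 0.13, limma adjusted p = 0.987), and -0.29 without both libraries. It was called without control female 5 (-0.42), nPM female 1 (-0.43) or nPM female 5 (-0.45).

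Marker genes of 9 tissues and cell types were tested in the same comparison, and 0 were called. The interaction was positive for 0 of 8 choroid plexus markers (median -1.43), 0 of 6 meningeal fibroblast (median -0.92) and 0 of 6 microglia markers (median -0.11), 1 of 6 astrocyte (median -0.05) and 2 of 6 striatum markers (median -0.22). It was positive for 8 of 10 hippocampal neuron markers (median 0.25), 3 of 3 blood (median 0.70), 6 of 6 thalamus (median 0.54) and 6 of 6 oligodendrocyte markers (median 0.32). The oligodendrocyte sum was lowest in control male 1 (2236 CPM) and nPM female 4 (2736 CPM), against 3355 to 5459 CPM elsewhere, and without both libraries, again chosen after seeing the data, 4 of 6 were positive (median 0.02). The medians of the other lists were then -2.44 for choroid plexus, -0.92 for meningeal fibroblasts, -0.28 for microglia, -0.07 for astrocytes, -0.41 for striatum, 0.16 for hippocampal neurons, 1.41 for blood and 0.42 for thalamus, with 0 called. Control females 1 to 5 had a choroid plexus sum of 38.1, 284, 84.5, 509 and 358 CPM, and females exposed to nPM one of 8539, 89.9, 56.0, 66.6 and 1894 CPM. Control males 1 to 5 had 84.8, 4979, 33.1, 7295 and 2878 CPM, and males exposed to nPM had 64.4, 3077, 5469, 168 and 848 CPM. Libraries rich in choroid plexus RNA occurred in all groups except control females, and their part in the result was not tested.

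**Figure D4:**
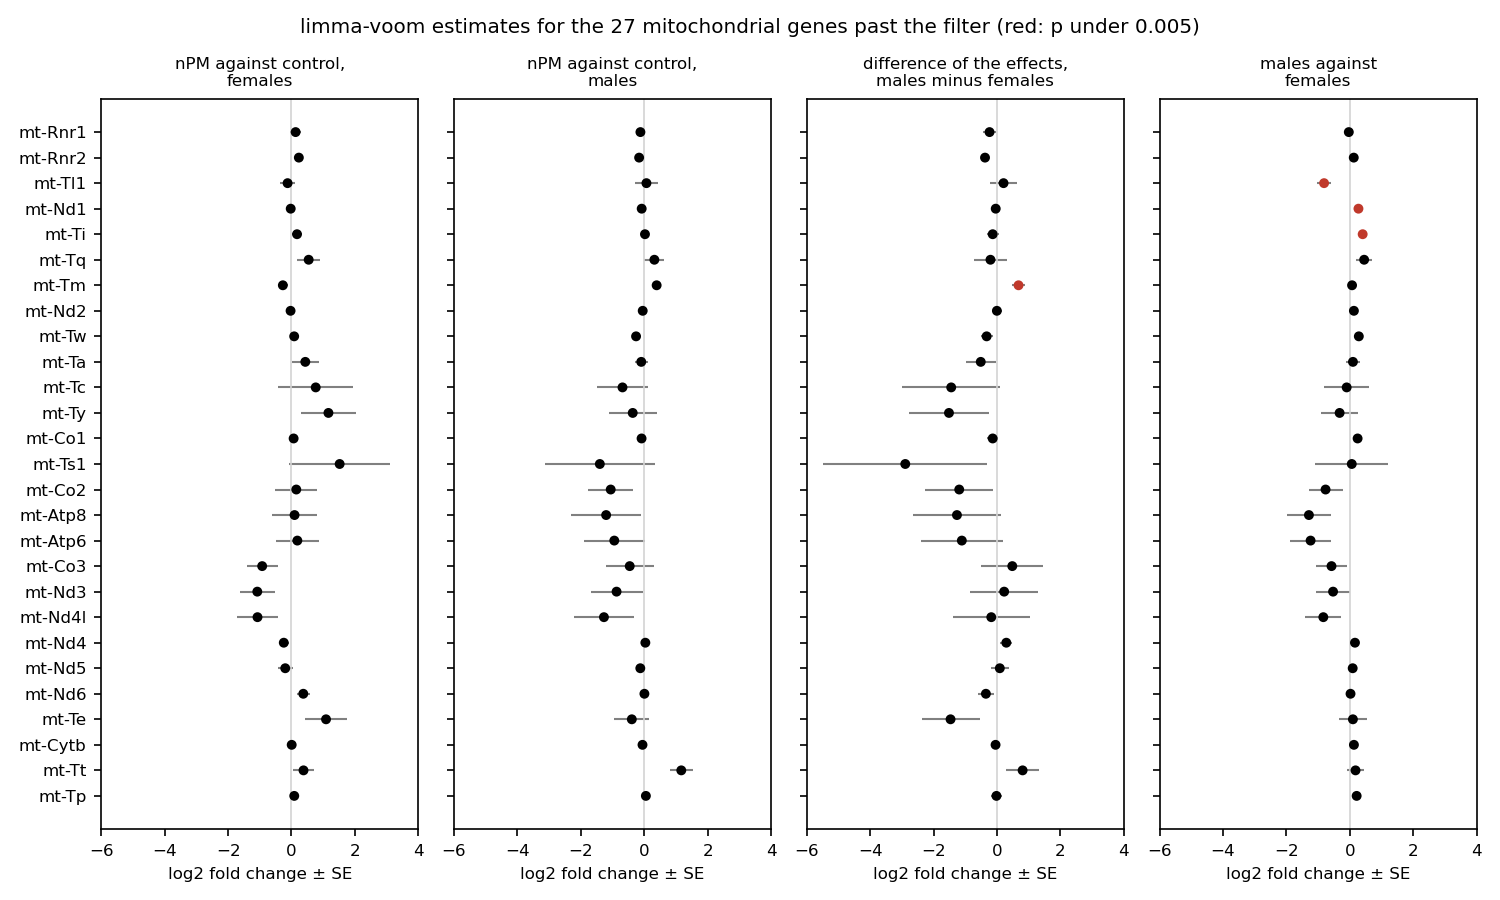
limma-voom log2 fold changes with SE for the 27 mitochondrial genes that passed the filter, in gene order, for nPM against control in females and in males, the difference of these effects, and males against females. Red points have p under 0.005 (mt-Tm for the difference; mt-Tl1, mt-Nd1 and mt-Ti for sex), and mt-Ts1, mt-Tc, mt-Ty, mt-Te and the 6 mRNAs of the copied stretch have the widest errors.

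Shares of the library were compared as well, with 7 class measures in 4 comparisons and Benjamini-Hochberg adjustment over these 28 tests (2-sided exact permutation tests, for which 0.00794 is the smallest p that 5 against 5 samples can give). Control males 1 to 5 had 14.3%, 13.99%, 13.5%, 14.1% and 13.8% of counts on chrM, and males exposed to nPM had 13.9%, 12.99%, 13.4%, 13.04% and 11.4%. Among females the controls had 11.8%, 11.6%, 12.9%, 11.1% and 13.3%, and those exposed to nPM 12.4%, 15.2%, 12.3%, 15.7% and 12.1%. Control males lay above all control females, nPM male 1 lay inside the range of the control males, and the other nPM males lay below it. The mean was lower by 1.01 percentage points in nPM males than in control males (exact permutation p = 0.0238, adjusted p = 0.133) and higher by 1.39 in nPM females than in control females (exact permutation p = 0.190, adjusted p = 0.356). Without nPM female 4 the difference in females was 0.843 (exact permutation p = 0.365, adjusted p = 0.465 with control male 1 left out as well). Between control males and control females it differed by 1.79 percentage points (exact permutation p = 0.00794, adjusted p = 0.0741). Of the 28 tests, 0 passed an adjusted p of 0.05 by the exact permutation test, whereas without nPM male 1 the shares on chrM and in rRNA genes in males passed it (0.0444). Without nPM male 5 these differences in males shrank to -0.630 and -0.565 percentage points. With single males left out their exact permutation p ran up to 0.0635.

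The marker lists were tested by limma after nPM within each sex as well, and 0 markers were called. In males estimates were higher for 0 of 8 choroid plexus markers (median -0.45), 0 of 6 of meningeal fibroblasts (-0.37), 2 of 6 of astrocytes (-0.05), 3 of 6 of striatum (-0.06), 4 of 6 of microglia (0.01), 4 of 6 of thalamus (0.26), 6 of 6 of oligodendrocytes (0.21), 3 of 3 of blood (0.70) and 8 of 10 of hippocampal neurons (0.23). In females they were higher for 8 of 8 choroid plexus markers (median 0.97), 6 of 6 of meningeal fibroblasts (0.56), 3 of 6 of astrocytes (0.00), 4 of 6 of striatum (0.37), 6 of 6 of microglia (0.18), 0 of 6 of thalamus (-0.22), 0 of 6 of oligodendrocytes (-0.09), 2 of 3 of blood (0.00) and 5 of 10 of hippocampal neurons (0.03). At p under 0.05 stood 2 hippocampal neuron markers, 1 of striatum and 1 of thalamus in males, and 1 of meningeal fibroblasts in females, all with higher estimates. Of all genes tested 4.28% in males and 1.99% in females had a limma p under 0.05. Without both libraries that stood apart, the choroid plexus medians were -0.98 in males and 1.44 in females, those of meningeal fibroblasts -0.12 and 0.83, those of oligodendrocytes -0.02 (2 of 6) and -0.01 (2 of 6), and those of blood 1.30 and -0.10. Those of thalamus were 0.08 and -0.19, of hippocampal neurons 0.12 and 0.03, and of microglia -0.02 and 0.29. Those of striatum were 0.01 and 0.44, and of astrocytes -0.03 and 0.02. At p under 0.05 then stood 3 hippocampal neuron markers, 1 of striatum and 1 of thalamus in males. In females 2 of microglia, 2 of meningeal fibroblasts and 1 of hippocampal neurons did, and 0 markers were called. Of all 20047 genes in these fits, 488 higher and 430 lower stood at p under 0.05 in males, and 536 and 273 in females. The part of these tissues in the values of mt-Tt, mt-Rnr2 and the shares was not tested.

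The rRNA genes carried most of this. In males they held 11.8% ± 0.192 (SD, n = 5) of counts (controls) and 10.9% ± 0.900 (nPM), and in females 10.2% ± 0.904 and 11.6% ± 1.53. The mRNA genes held 2.15% ± 0.133 and 2.07% ± 0.0888 in males and 1.97% ± 0.148 and 1.93% ± 0.291 in females. The difference in males after nPM was -0.934 percentage points for rRNA (exact permutation p = 0.0238, adjusted p = 0.133) and -0.0768 for mRNA (exact permutation p = 0.294, adjusted p = 0.466). Without control male 1 the mRNA difference was -0.0287 (exact permutation p = 0.595), and with each male left out in turn it ran from -0.112 to -0.0287. In females it was -0.0373, and -0.150 without nPM female 4 (exact permutation p of 0.841 and 0.238), and ran up to 0.0498 with other females left out. The log2 ratio of mt-Nd6 to the 12 heavy-strand mRNAs measures the balance of the strands only if reads were assigned by strand, which is not known here. The ratio was -7.55 ± 0.19 (controls) and -7.17 ± 0.34 (nPM) in females, and -7.55 ± 0.18 (controls) and -7.46 ± 0.11 (nPM) in males (SD, n = 5). Its difference after nPM was 0.39 in females (exact permutation p = 0.0556, adjusted p = 0.2) and 0.09 in males (exact permutation p = 0.333, adjusted p = 0.466). Without nPM female 4 and control male 1 it was 0.25 in females (exact permutation p = 0.0873, adjusted p = 0.222) and 0.16 in males (exact permutation p = 0.0635, adjusted p = 0.198).

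**Figure D5:**
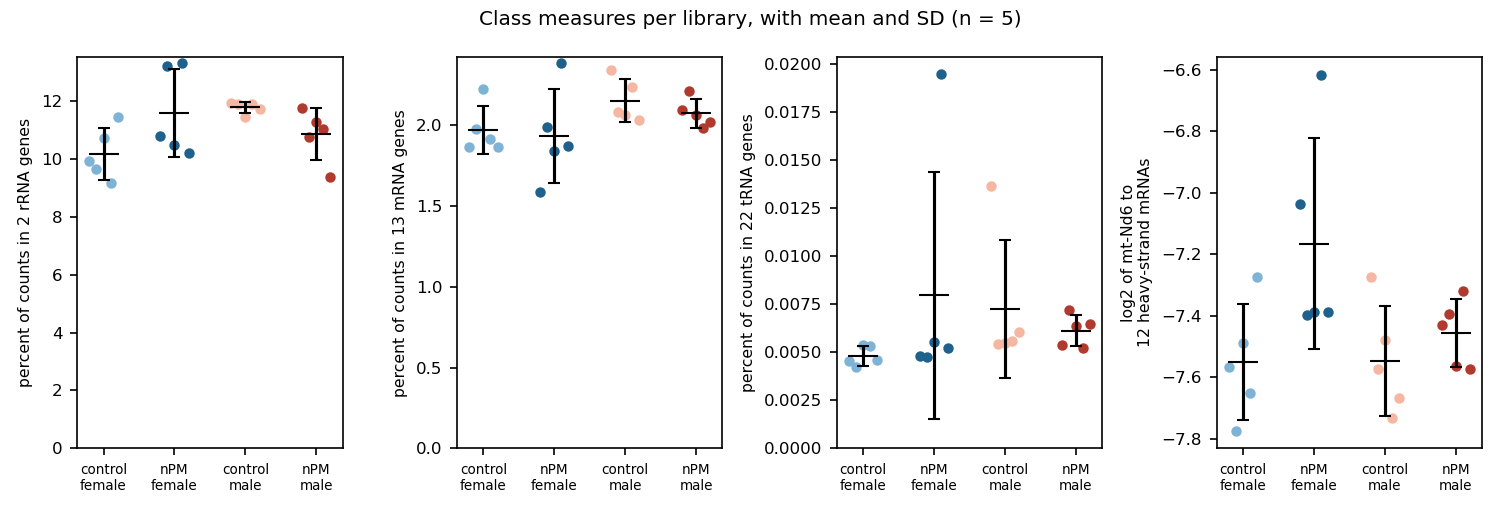
Percent of counts in the rRNA, mRNA and tRNA genes of the mitochondrial genome, and the log2 ratio of mt-Nd6 to the 12 heavy-strand mRNAs, in each library with the mean and SD of each group (n = 5). The single high points in tRNA are nPM female 4 and control male 1, and control males are close together in rRNA.

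Males and females, compared over all 20 libraries with exposure as a covariate, differed at 3 of 27 mitochondrial genes at p under 0.005 in limma (background 31.1%), at 6 with p under 0.05 (background 48.4%) and at 6 with an adjusted p under 0.05 (limma, Benjamini-Hochberg; background 40.4%). All these shares are below the background of this comparison. The called genes were mt-Nd1 and mt-Ti, higher in males, and mt-Tl1, lower in males. They lie near each other behind mt-Rnr2, with mt-Tl1 at chrM:2676-2750, mt-Nd1 at chrM:2751-3707 and mt-Ti at chrM:3706-3774, all on the plus strand (GRCm38). The tRNAs are shown with their anticodon in capitals. mt-Tl1, a leucine tRNA, also contains the sequence bound by the termination factor Mterf1a, and mt-Ti is the isoleucine tRNA.
mt-Tl1: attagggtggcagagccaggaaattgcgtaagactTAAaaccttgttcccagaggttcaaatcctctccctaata
mt-Ti: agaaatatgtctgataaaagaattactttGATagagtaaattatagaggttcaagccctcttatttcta

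In females mt-Nd1 had 2018, 1814, 2256, 1931 and 2009 CPM (controls 1 to 5) and 1797, 1744, 1969, 2363 and 1807 CPM (nPM). In males it had 2251, 2283, 2388, 2416 and 2370.3 CPM (controls) and 2263, 2473, 2352, 2244 and 2025 CPM (nPM). Most males were above most females, with nPM male 5 low among males, and control female 3 and nPM female 4 high among females. It was higher in males by 0.27 (SE 0.06, n = 10 per sex, limma p = 0.000163, adjusted p = 0.0011). In females mt-Tl1 had 1.25, 1.37, 1.82, 0.930 and 0.807 CPM (controls 1 to 5) and 1.40, 1.04, 0.906, 0.890 and 1.15 CPM (nPM). In males it had 0.714, 0.495, 0.745, 0.285 and 1.11 CPM (controls) and 0.722, 0.577, 0.882, 0.655 and 0.457 CPM (nPM). The nPM groups did not overlap (exact permutation p = 0.00794), and among controls control male 5 lay inside the female range. The log2 difference was -0.81 (SE 0.21, n = 10 per sex, limma p = 0.000964, adjusted p = 0.00432), on 11 to 57 counts per library. In females mt-Ti had 6.57, 9.11, 7.20, 10.7 and 9.82 CPM (controls 1 to 5) and 8.89, 8.01, 9.61, 9.90 and 10.7 CPM (nPM). In males it had 10.9, 13.3, 9.12, 10.8 and 12.6 CPM (controls) and 11.2, 14.04, 11.9, 10.3 and 11.9 CPM (nPM). Control male 3 and nPM male 4 lay inside the range of the females, and the other males above it. The log2 difference was 0.41 (SE 0.10, n = 10 per sex, limma p = 0.000354, adjusted p = 0.00197).

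mt-Co1 (0.25, SE 0.08), mt-Tw (0.28, SE 0.10) and mt-Tp (0.22, SE 0.08) were higher in males at adjusted p of 0.0199, 0.0275 and 0.0465 (limma, Benjamini-Hochberg). Without control male 1 and nPM female 4, limma called 5 of 27 genes, mt-Co1 and mt-Tw beside the 3 above. This share is again below the background, which was 31.3% of all genes in that fit. With single libraries left out, it also called mt-Co1 without control female 4, control male 5, nPM female 4 or nPM male 5, mt-Tw without nPM female 4 or nPM male 5, mt-Cytb without nPM female 4 and mt-Nd4 without control female 3. mt-Rnr2 differed by 0.12 between the sexes (SE 0.07, n = 10 per sex, limma p = 0.109, adjusted p = 0.192). Among controls every male was above every female (exact permutation p = 0.00794), and among nPM animals the sexes overlapped (exact permutation p = 0.413).

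Values of other RNA classes and tissues were compared between the sexes as well. lincRNA genes summed to 24683 to 35458 CPM in females and 14257 to 21511 CPM in males, without overlap. Blood markers had higher estimates in males for 3 of 3 tested (median 1.63, 0 called). The blood markers summed to 41.1 CPM in control male 1, 30.3 in nPM male 1 and 56.9 in nPM male 2 against 1.27 to 6.31 CPM in all other libraries, and Hbb-bs was the most abundant (mean 5.88 CPM). All 8 choroid plexus markers had higher estimates in males (median 1.23, 0 called), and their sums overlapped between the sexes. Of the microglia markers 6 of 6 had higher estimates in males (median 0.29, 2 called), of the astrocyte markers 5 of 6 (median 0.17, 2 called), of the oligodendrocyte markers 6 of 6 (median 0.22, 0 called), of the meningeal fibroblast markers 6 of 6 (median 0.49, 0 called), of the striatum markers 3 of 6 (median 0.12, 0 called), of the thalamus markers 2 of 6 (median -0.13, 0 called) and of the hippocampal neuron markers 5 of 10 (median -0.06, 1 called), where 31.1% of all genes were called. Without control male 1 and nPM female 4, 3 of the 6 oligodendrocyte markers (median 0.26) and 2 of the 6 astrocyte markers (0.15) were called. So were 1 of the 6 microglia (0.21) and 1 of the 10 hippocampal neuron markers (-0.07), beside 31.3% of all genes. The other medians were 1.44 for choroid plexus, 1.35 for blood, 0.34 for meningeal fibroblasts, 0.03 for striatum and -0.03 for thalamus, with 0 called. The part of these tissues in the sex differences was not tested.

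The nuclear partners of the mitochondrial mRNAs were compared between the sexes too. Of 71 nuclear genes for subunits of complexes I, III and IV and ATP synthase, 71 had higher estimates in males, 58 of them called (median 0.34, range 0.07 to 0.60), beside a median of 0.02 and 31.1% called over all genes tested. Without both libraries 61 were called (median 0.30, beside 31.3%). Of the 13 mitochondrial mRNAs 7 had higher estimates in males and 1 was called (median 0.02, range -1.29 to 0.27), and the 6 with lower estimates were those of the copied stretch. The 7 not wholly inside it had a median of 0.13 (range 0.02 to 0.27), and their difference from the nuclear genes was not tested. Of 78 mitochondrial ribosomal protein genes tested, 47 were called higher and 1 lower in males (median 0.25), beside 6147 of 19797 genes called in either direction, and 39 higher and 1 lower without both libraries. In males after nPM, limma called 0 of the 71 subunit genes (0.207% of all genes), and 5 had p under 0.05 (4.28% of all genes). The medians were -0.07 for complex I, -0.09 for complex III, -0.08 for complex IV and -0.06 for ATP synthase. In females 0 were called as well (0.0909% of all genes) and 1 had p under 0.05 (1.99% of all genes). The medians were 0.02, 0.03, 0.04 and 0.05 in the same order, with higher estimates for 50 of 71. Without both libraries 0 were called in either sex (0.274% and 0.244% of all genes in males and females), and 10 and 3 had p under 0.05. Of all 20047 genes in these fits, 488 higher and 430 lower had p under 0.05 in males, and 536 and 273 in females. The medians of the subunit genes were then -0.09, -0.12, -0.11 and -0.12 in males, with higher estimates for 3 of 71 against 9 before. In females they were 0.10, 0.14, 0.12 and 0.12, with higher estimates for 69.

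Of 21 nuclear genes for transcription and replication of mitochondrial DNA, 1 was called after nPM in males and 0 in females by limma, beside 0.207% and 0.0909% of all genes. This was Tfb2m, the factor that opens the promoter for the mitochondrial RNA polymerase. It had 8.92, 7.63, 8.59, 8.30 and 7.01 RPKM in control males 1 to 5 and 6.33, 7.32, 5.86, 6.52 and 5.16 RPKM in nPM males. Of the nPM males 4 were below every control male, and nPM male 2 lay between control males 5 and 2. This is a log2 fold change of -0.41 (SE 0.10; p = 0.0159 by exact permutation, p = 0.00192 and adjusted p = 0.963 by limma). With each male left out in turn, runs added after seeing the data, the value was -0.37 and called without control male 1, and -0.38 and not called without control male 3. In females Tfb2m had 5.39, 5.57, 7.33, 7.53 and 5.34 RPKM in controls and 6.88, 5.61, 6.73, 5.83 and 4.72 RPKM after nPM, and the groups overlapped (log2 fold change -0.05, SE 0.15; exact permutation p = 0.675, limma adjusted p = 1). The difference between the sexes was -0.35 (SE 0.18, limma adjusted p = 0.987).

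Other factors of the same list did not change after nPM at the call threshold. Polrmt, the mitochondrial RNA polymerase, had a mean of 3.16 RPKM, Tfam, which packages mitochondrial DNA and binds its promoters, 8.16 RPKM, Twnk, the replicative helicase, 3.01 RPKM, Polg, the DNA polymerase, 5.08 RPKM, and Mterf1a 1.68 RPKM. Between the sexes limma called 1 of the 21 genes higher and 2 lower in males, beside 31.1% of all genes. Tfam was higher in males by 0.27 (SE 0.05, n = 10 per sex as for the genes below, limma p = 6.32e-05, adjusted p = 0.00054), and Polg (-0.22, SE 0.05, limma p = 0.000287, adjusted p = 0.00167) and Mterf3 (-0.16, SE 0.05, limma p = 0.00177, adjusted p = 0.00703) were lower. Of 32 genes for processing and decay of mitochondrial RNA, limma called 10 higher and 2 lower in males, beside 31.1% of all genes called in this comparison. Without both libraries it called 7 higher and 4 lower, beside 31.3% of all genes. The partners Lrpprc and Slirp, which stabilise mitochondrial mRNAs as a complex, had 14.8 and 9.16 RPKM. Slirp was higher in males by 0.33 (SE 0.06, n = 10 per sex, limma p = 5e-05, adjusted p = 0.000452), and Lrpprc was -0.09 (SE 0.04, limma p = 0.029, adjusted p = 0.0667), and -0.12 and called without both libraries. Higher in males were also Trmt10c, a subunit of the enzyme that cuts the 5′ ends of mitochondrial tRNAs (0.37, SE 0.08, n = 10 per sex, limma p = 0.00013, adjusted p = 0.000922), and Pde12, which removes poly(A) tails (0.37, SE 0.07, limma p = 3.36e-05, adjusted p = 0.00034), whereas Elac2, which cuts the 3′ ends, was lower (-0.17, SE 0.05, limma p = 0.00155, adjusted p = 0.00631). After nPM in males 1 of the 32 was called, Fastkd1 (0.23, SE 0.07, limma adjusted p = 0.963), beside 0.207% of all genes. Of the runs with each of the 10 males left out, limma called Fastkd1 only without control male 1 (0.24), and its values ran from 0.19 to 0.24. Without both libraries 2 of the 32 were called in males, beside 0.274% of all genes in that fit. Of the sex differences named here, Mterf3 was not called without nPM female 5, nor Elac2 without nPM male 3.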

How the data were processed

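The authors prepared total RNA libraries and, per the methods and processing notes, trimmed reads with Trimmomatic where needed, aligned them with HISAT2 to GRCm38 (mm10) and counted genes with featureCounts 1.5.0-p3 on GENCODE M11. They deposited raw counts for 48709 genes in 20 samples and a mean RPKM per gene, which was used in no test. CPM and RPKM per sample were computed from the deposited counts and gene lengths. Members and gene lists were chosen with earlier results of these data known. Genes were filtered with filterByExpr (minimum count 10) and fitted with limma-voom (limma 3.58.1, R 4.3.3) after TMM normalization, with library sizes over the kept genes. All tests were 2-sided. The fits were nPM with sex as a covariate, nPM within each sex, the interaction, and sex with exposure as a covariate. The script was tested on simulated data. Alternatives were the edgeR quasi-likelihood test (4.0.16), DESeq2 (1.42.0), RLE factors, no filter, scaling on nuclear genes, a replicate block, other denominators, leaving out samples, and, chosen after seeing the data, leaving out control male 1 and nPM female 4 and leaving the 6 mRNAs of the copied stretch out of the mRNA sum. All mRNA and rRNA genes were named, and tRNA genes if among the 5 highest, leading a strand or called. Polrmt, Tfam, Tfb2m, Twnk, Polg, Mterf1a, Lrpprc and Slirp were named in any case and other list genes only if called. Nuclear copies were searched with blastn 2.17.0 at 80% identity or more among GENCODE M21 transcripts. Samples of a group differed by more than sampling noise, with a chi-square per degree of freedom of at least 14.7 for each pair. Intervals and floors cover counting error only.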

Additional observations from a re-analysis of the deposited data

Results flagged for a closer look

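Over 136 groups of 5 values, 20 held a lowest or highest library far from the other 4, where chance gives about 1 in 20 groups, or 6.8. The groups are not independent, since tRNA shares, tRNA ratios and single tRNA genes rest on the same counts. The number given by chance is therefore only a rough guide and no test. Of the 20 values, 9 were in nPM female 4 and 7 in control male 1. In nPM female 4 the tRNA genes held 0.0195% of counts and the log2 ratio of tRNA to mRNA was -6.93. The same library had 82.8 CPM of mt-Ts1, 17.3 CPM of mt-Tc, 12.7 CPM of mt-Ty, 8.90 CPM of mt-Ta, 7.96 CPM of mt-Te, 240 CPM of mt-Nd6 and 3479 CPM of mt-Cytb, each the highest of the nPM females. In control male 1 the tRNA genes held 0.0137% of counts, the log2 ratio of tRNA to mRNA was -7.42, and mt-Ts1 had 64.3 CPM, mt-Tc 5.21 CPM, mt-Ty 4.53 CPM and mt-Te 4.28 CPM, each the highest of the control males. mt-Rnr1 had 11996 CPM there, the lowest of its group against 15214 to 16495 CPM.

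nPM male 5 was far above the other nPM males in mt-Ty (1.16 CPM), mt-Nd3 (115 CPM against 6.33 to 33.7) and mt-Nd4l (11.8 CPM against 0.491 to 3.4), and nPM female 5 in mt-Co3 (903 CPM against 164 to 319). The effect of nPM on mt-Tm differed between the sexes by 0.68 on the log2 scale (limma adjusted p = 0.987). The causes were not tested.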

How the results depend on the processing

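Counts of called mitochondrial genes were small, and several moved by a gene or more. With sexes combined, 0 became 1 with DESeq2 and 1 without control male 1 and nPM female 4 (chosen after seeing the data), and ran from 0 to 1 when each sample was left out. In males 0 became 1 with DESeq2, 1 with the replicate number as a block and 1 when all 4 groups were fitted together (mt-Tt in each), and ran from 0 to 1 without each sample. In females it was 0 in each alternative run. For the interaction 1 became 3 with edgeR, 3 with DESeq2, 2 with no filter, 0 with the replicate block and 0 without both libraries, and ran from 0 to 2 without each sample (mt-Tm in 13 of 20 runs and mt-Rnr2 in 3); the value of mt-Tm ran from 0.58 to 0.75 on the log2 scale. For sex 3 became 4 with no filter, 4 with the replicate block (mt-Co1 added in each) and 5 without both libraries (beside 31.3% of all genes called). It ran from 3 to 6 without each sample, with mt-Tl1, mt-Nd1 and mt-Ti past the threshold each time. The replicate numbers do not pair the samples: 10 of 30 same-numbered pairs correlated above 0.1 (range -0.416 to 0.283) and own numbers correlated best in 6. With each sample left out, the nPM difference for the share on chrM ran from 0.843 to 1.75 percentage points in females and from -1.24 to -0.630 in males, and in males from -1.16 to -0.565 for rRNA, with a lowest adjusted p of 0.0444 by exact permutation, without nPM male 1. The paired exact test of class measures cannot go below p = 0.0625. Low tRNA counts limit precision. The cause of these shifts was not tested.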

Other observations

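Over 12887 nuclear protein-coding genes with a mean of at least 50 counts, scaled on nuclear genes and with the group means subtracted, the genes whose log2 level over the 20 samples moved most like the summed mitochondrial mRNAs were Usp1 (r = 0.871), Tab2 (r = 0.864), Lin54 (r = 0.864), 9330151L19Rik (r = 0.857) and Syncrip (r = 0.854). Those that moved most against them were Tbc1d10a (r = -0.884), Hist1h1d (r = -0.880), Tmem101 (r = -0.873), Chchd10 (r = -0.859) and Hist2h2ac (r = -0.856). These genes are the extremes of all genes compared, and no test was made.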
